A study of Mus musculus with 2 samples.

Results

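Sox2 and the gene-poor stretch that follows it on mouse chromosome 3 were described here through the binding of CTCF in embryonic stem cells (ESCs). The region was set by position alone, from 200 kb upstream to 1 Mb downstream of the annotated Sox2 start, chr3:34348927-35548927 on mm9, and 15 of the 33788 deposited CTCF peaks have their summit in it. The ESCs were R1/E cells that carried, beside their own untagged CTCF, a CTCF-LAP transgene on a bacterial artificial chromosome (BAC). The LAP tag contains GFP, and lines were selected and sorted as clones, so that the ChIP reads the tagged protein of 1 line. Cells were fixed with 1% formaldehyde, chromatin was sheared to about 500 bp, and each immunoprecipitation used 5 ug of antibody. The CTCF library was made with a goat antibody against eGFP, and the IgG library with a goat isotype control from the same tagged cells. There is 1 library of each, hence no replicate, and all tests and intervals compare these 2 libraries and cover counting error only.

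Sox2 encodes an HMG-box transcription factor that, with Oct4 and Nanog, maintains the pluripotent state of ESCs. It is a gene without introns that lies inside an intron of the long noncoding RNA gene Sox2ot, and in ESCs its transcription depends on a distant enhancer cluster downstream of the gene, known as the Sox2 control region. CTCF is a zinc finger protein that binds a long, asymmetric motif, holds cohesin on chromatin and takes part in chromatin loops, whose ends often carry motifs that point toward each other.

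The CTCF library holds 8391191 tags of 35 bp and the IgG library 7988889. Of these, 11.5% and 1.31% lie in deposited peaks. The region itself holds 4333 CTCF and 4263 IgG tags, so a window of 1 kb has on average only between 3 and 4 tags of either library.

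The 15 peaks are numbered along the chromosome from the upstream end. The motif was searched on both strands with a matrix from 192 sequences. The study lists these as CTCF motif matches in its data of the cohesin subunit RAD21 and not from its CTCF peak list. Most RAD21 sites overlap CTCF sites in the paper, however, and how many of the sequences lie in CTCF peaks was not checked. The threshold was 13.06 bits, which random sequence of the same base composition reaches at 1e-05 of positions per strand. The consensus of the matrix, in the orientation called forward here (more G than C), reads TGGCCACCAGGGGGCACTA. Over the whole deposited peak, 9 of the 15 peaks hold a match, against 81.2% of all 33756 peaks on assembled chromosomes. The 9 matches are printed to show how close each is to the consensus and which way it points. Each is written 5′ to 3′ in the forward orientation of the motif, with capitals for bases equal to the consensus, and with the direction in which it points along the chromosome, forward being away from the upstream end.
Peak 2, forward, chr3:34500220-34500238: aGGCCAgaAGaGGGCAgTg
Peak 3, reverse, chr3:34538324-34538342: TtGtCAttAGaGGGCgCcA
Peak 4, reverse, chr3:34539816-34539834: cGtCCAatAGGGGGCgCTg
Peak 5, forward, chr3:34546806-34546824: ccaCCAgCAGGGGGCgCag
Peak 8, reverse, chr3:34659022-34659040: ccGCCAgCAGGaGGCggTg
Peak 11, reverse, chr3:35002350-35002368: gtttCACCAGGGGGCgCTc
Peak 12, reverse, chr3:35222818-35222836: ccaCCAgCAGGGGGagtcg
Peak 13, reverse, chr3:35304619-35304637: ctGCCAggAGaGGGCcCcg
Peak 14, reverse, chr3:35381436-35381454: aGGCCACtAGGtGGCACTA

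Of the 6 peaks without a match, 3 came close to the threshold and 3, peaks 1, 6 and 7, had none even at a threshold of 1e-04. The best sequences of the 3 near the threshold are given for comparison, with scores of 12.17, 11.7 and 12.81 bits in this order.
Peak 9, forward, chr3:34671148-34671166: aGGCCAgaAGaGGaCctcA
Peak 10, reverse, chr3:34728512-34728530: cGaCCACCAGGGtGtACcA
Peak 15, reverse, chr3:35473568-35473586: gttCCACagGGaGGCgCTc

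The peak closest to the Sox2 start and the tallest peak of the region hold matches that face each other across the gene. Their surroundings are printed on the plus strand of the chromosome with the motif in capitals, so that the match of peak 8 appears there as the reverse complement of its line above.
Peak 5, chr3:34546756-34546874: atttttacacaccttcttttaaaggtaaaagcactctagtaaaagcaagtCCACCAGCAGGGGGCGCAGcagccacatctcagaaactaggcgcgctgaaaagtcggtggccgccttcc
Peak 8, chr3:34658972-34659090: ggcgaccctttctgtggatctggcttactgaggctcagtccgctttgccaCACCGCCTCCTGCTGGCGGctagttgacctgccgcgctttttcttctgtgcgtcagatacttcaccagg

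The 15 peaks fall into a dense group near Sox2 and a sparse one beyond it. Of the 15, 5 summits lie in the 200 kb upstream of the Sox2 start, 5 in the first 200 kb downstream and 5 in the remaining 800 kb, which comes to 2.5, 2.5 and 0.625 summits per 100 kb. The whole of chromosome 3 has 1.02 per 100 kb. Peaks 1 to 6 lie in introns of Sox2ot and the other 9 are intergenic, since no gene is annotated in the region between the end of Sox2ot at chr3:34581541 and the downstream edge. The nearest protein-coding genes are Dnajc19, which ends 569 kb upstream of the Sox2 start, and Atp11b, which begins 1100 kb downstream.

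**Figure D1:**
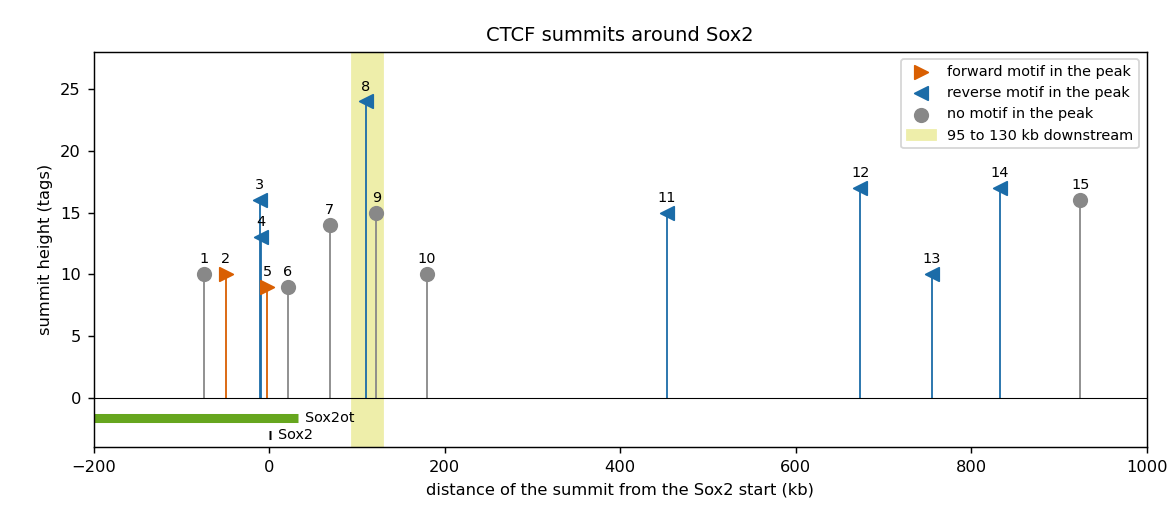
Height of each of the 15 CTCF summits, in tags, against its distance from the Sox2 start in kb, with peaks numbered along the chromosome. Arrowheads give the direction of the motif match in the peak and circles mark peaks without one. The tallest summit, peak 8 with 24 tags, lies 110.1 kb downstream inside the shaded stretch, and all matches from there on point back toward Sox2.

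Summit heights, the top of the tag pileup that the authors' peak caller wrote, ran from 9 to 24 tags with a median of 14, against a median of 13 over all 33756 summits. Of the 15 summits, 8 stood above that overall median and 7 did not. The tallest was peak 8, at chr3:34658646-34659420, with a height of 24 tags and a score of 185.96, where the score is -10 times the log10 of the caller's p-value. Its height was above 93.8% of all summits. Peaks 12 and 14, at chr3:35222649-35223277 and chr3:35381195-35382351, both reached 17 tags, above 74.1% of all summits. Peaks 3 and 15, at chr3:34537834-34538893 and chr3:35473151-35473854, both reached 16 tags, above 68.9%.

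Height and score did not put the same peak first. The highest score of the region was 279.98, at peak 14, above 92.2% of all peaks, and the lowest was 63.87, at peak 10. Peak widths ran from 629 bp at peak 12 to 1482 bp at peak 2, with a median of 876 bp against 832 bp over all peaks. Peak 2 was thus the widest while its summit was among the lowest, with 10 tags.

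In the upstream group, peak 1 was at chr3:34474834-34475491, with its summit 73.9 kb before the Sox2 start. It held 20 CTCF tags and 1 IgG tag over its width. Peak 2, at chr3:34498896-34500377, held 40 CTCF and 7 IgG tags, the second highest CTCF count and the second highest IgG count of the region. Peaks 3 and 4 formed the closest pair of the region, with summits 1.5 kb apart, 10.5 and 9.0 kb before the start. Peak 3 held 32 CTCF tags and 1 IgG tag, which gave the highest depth-scaled ratio, 30.5 (exact 95% interval 5.09 to 1240). Peak 4, at chr3:34539669-34540553, held 29 CTCF and 3 IgG tags.

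Peak 5 was the nearest to Sox2 on the upstream side. It spans chr3:34546235-34547146, with its summit 2264 bp before the start, a height of 9 tags and a score of 78.31. Within 150 bp of this summit lay 11 CTCF tags and 1 IgG tag, against 1.35 expected from the IgG library. Its forward motif, with a score of 21.3 bits, is centred 152 bp to the right of the summit, just beyond the 150 bp within which motifs were counted at summits. On the downstream side the nearest was peak 6, at chr3:34569649-34570429, with its summit 21113 bp after the start, still in an intron of Sox2ot and past the end of Sox2. It also had a height of 9 tags, with 11 CTCF tags and 1 IgG tag within 150 bp, and no match. These 2 peaks had the lowest summits of all 15.

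Sox2 itself carried no peak. Its transcribed body, chr3:34548927-34551383, held 13 CTCF and 5 IgG tags, a ratio of 2.48 whose exact 95% interval, 0.828 to 8.87, includes 1. In the 1 kb centred on the start there were 0 CTCF tags and 1 IgG tag. A count of 0 allows up to 3 tags, and with a single IgG tag in the same window no difference was detectable there at this depth.

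Further downstream, peak 7, at chr3:34617707-34618582, lay 69.2 kb from the start. It held 33 CTCF tags but also 8 IgG tags, the highest IgG count of the 15, so its ratio was the lowest, 3.93 (1.78 to 9.84). Peaks 8 and 9 belong to the stretch described further on. Peak 10, at chr3:34728056-34728784 and 179.5 kb downstream, held 18 CTCF and 4 IgG tags and had the lowest score. It was also the peak without the usual strand pattern, in which tags on the plus strand precede those on the minus strand: the median minus-strand position lay 57 bp before the median plus-strand position, from 3 plus and 13 minus tags. In the other 14 peaks it lay between 65 and 251.5 bp after it.

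The distal peaks were fewer but not lower. Peak 11, at chr3:35001875-35002927, stood alone 453.4 kb downstream, with 37 CTCF and 3 IgG tags and its motif centred 4 bp from the summit. Peak 12 held 26 CTCF tags and 1 IgG tag, and peak 13, at chr3:35304144-35305406, held 31 and 5. Peak 14 held 46 CTCF and 3 IgG tags, the most CTCF tags of any of the 15, and also has the motif closest to the consensus, with 16 of 19 bases equal and a score of 23.63 bits. Peak 15 held 23 CTCF and 3 IgG tags.

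**Figure D2:**
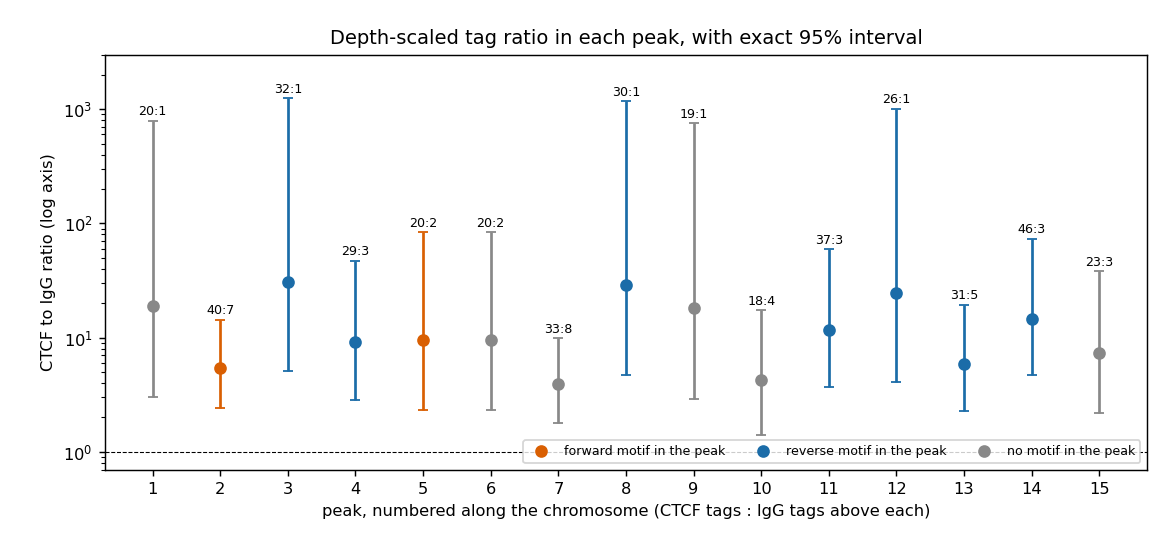
Ratio of CTCF to IgG tags in each of the 15 peaks, scaled to the library totals, on a log axis, with exact 95% intervals for counting error as bars and the tags of both libraries printed above. Ratios run from 3.93 at peak 7 to 30.5 at peak 3, and every lower bound lies above 1.

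Together the peaks held 424 CTCF and 45 IgG tags, a ratio of 8.97 (6.59 to 12.5). In the 300 bp centred on the summits it was 15.4 (9.17 to 28). These ratios restate the authors' call, which was made against the same IgG library, and give its size rather than a further test. So does a recount, whose p-values come from the same tags as the call. In it, the CTCF tags within 150 bp of each summit were set against the IgG library by an exact one-sided Poisson test. The expected number came from whichever IgG rate was highest, that of the genome or of 1, 5 or 10 kb around the summit. At p of at most 1e-05, 14 of the 15 summits passed, beside 85.4% of all summits. Peak 10 did not, with 10 CTCF tags where 1.89 were expected (exact Poisson test, p = 2.92e-05). Peak 8 gave the smallest p, 7.68e-26 by the same exact Poisson test, from 27 CTCF tags and 0 IgG tags.

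Windows of 1 kb laid over the whole genome give a view of the region that does not start from the peak list. Of the 1140 windows of the region with a tag, 13 had more CTCF than IgG tags by an exact binomial test at an adjusted p under 0.05 (Benjamini-Hochberg over all windows). This is 1.14% of them, near the 1.23% of windows called over the genome. None had more IgG tags. The 13 windows include 12 that touch a peak and come from 10 of the 15 peaks. Peaks 1, 4, 6, 9 and 10 have no called window, and the smallest number of tags in a called window of the region was 12. The strongest windows were those of peak 14, where 38 CTCF tags met 3 IgG tags (exact binomial, adjusted p = 7.81e-06), and of peak 3, with 31 and 1 (exact binomial, adjusted p = 1.01e-05).

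The spacing of the summits was uneven. The 14 distances between neighbours had a median of 44.5 kb, against 25.6 kb over all neighbouring summits of the genome, and 5 of the 14 were below that overall median. The longest stretch without a summit, 273.9 kb, lies between peaks 10 and 11, and 5.39% of all such distances in the genome are at least as long. The next, 220.5 kb, separates peaks 11 and 12, and 7.2% are at least as long. These stretches held 3.6 and 3.42 IgG tags per kb, beside 3.55 in the region as a whole.

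The number of summits was near the middle for segments of this length and near the top for those as poor in genes. Over 2081 tiles of 1200 kb, the median was 12 summits (quartiles 5 and 23), and 57.2% of the tiles had fewer than 15. Only 1 protein-coding gene, Sox2, starts in the region. Over the 373 tiles with at most 1 such start, the median was 2 summits (quartiles 1 and 5), 98.4% had fewer than 15 and 3 tiles had more. GC content moved with this difference: it was 43.2% in the region and had a median of 37.6% in these tiles. Among the 17 of them with a GC content of 42 to 45%, the median was 9 summits and 15 had fewer than 15.

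**Figure D3:**
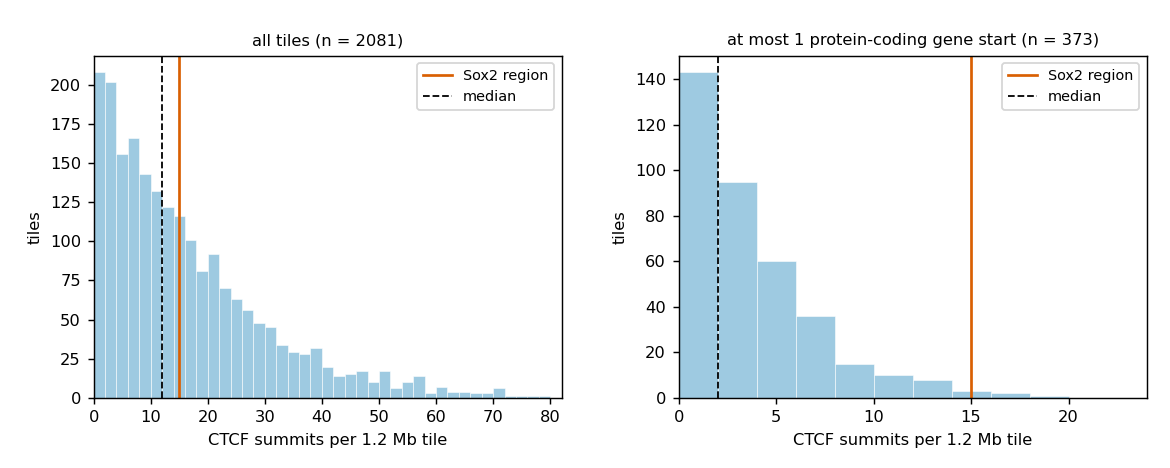
Number of CTCF summits per 1.2 Mb tile of the genome, for all 2081 tiles (left) and for the 373 with at most 1 protein-coding gene start (right). The vertical axis counts tiles, and tiles above 80 summits are in the last bar. The solid line marks the 15 summits of the Sox2 region and the dashed line the median, 12 and 2.

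Windows of the same shape around the other central pluripotency genes were far richer in both peaks and genes. Around Nanog, which encodes a homeodomain factor, 36 summits lay in the window, with 24 protein-coding gene starts and a median spacing of 8.7 kb. Around Pou5f1, which encodes Oct4, there were 56 summits, 52 starts and a median spacing of 11 kb. The median summit height was 13 tags around both, beside 14 around Sox2. The longest distances without a summit were 334 kb around Nanog and 134 kb around Pou5f1, so the 274 kb of the Sox2 region falls between them.

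At the level of the gene start, Sox2 was close to CTCF. Its nearest summit was at 2.26 kb and 2 summits lay within 10 kb, while 38.5% of all 22350 protein-coding genes had any summit within 10 kb and the median distance was 15.6 kb. In a list of 20 pluripotency genes, 12 had a summit within 10 kb, and the distance of Sox2 was the fifth shortest. Lefty1, an inhibitor of Nodal signalling, came first with 0.337 kb, then the Nodal co-receptor gene Tdgf1 with 1.53 kb, Nanog with 1.6 kb and Klf4 with 2 kb. Pou5f1 followed Sox2 with 2.4 kb. Among 18 Sox genes, 8 had a summit within 10 kb. Sox6, Sox9 and Sox15 were closer than Sox2, with 1.65, 2.11 and 2.19 kb. Sox3, like Sox2 a gene of the SOXB1 group, had its nearest summit 153 kb away.

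All motifs within 150 bp of a summit pointed the same way. With the motif counted within 150 bp of the summit, 7 of 15 summits had one (46.7%, 95% Wilson interval 24.8 to 69.9), beside 73.6% of all summits, and all 7 were reverse. Over all summits 49.8% of the motifs were forward. With the whole peak searched, as in the printed sequences, 2 of 9 were forward, peaks 2 and 5, and both lie upstream of Sox2. Within 150 bp of each of these 2 matches lay 11 CTCF tags and 0 IgG tags, beside 12 to 26 CTCF tags around the 7 reverse matches. The match of peak 2 is 391 bp from its summit and the best of the 9, with a score of 23.7 bits. Downstream of Sox2 the 5 matches, in peaks 8, 11, 12, 13 and 14, were all reverse. At these small numbers the shares are descriptions, and no test of direction was made.

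Taken in order, the 9 peaks with a match form 8 neighbouring pairs. Of these, 2 were convergent, 1 was divergent and 5 pointed the same way, while over the genome 24.7%, 24.7% and 50.6% of pairs were of these kinds. The first convergent pair, peaks 2 and 3, is 38.6 kb apart and lies within Sox2ot. The second, peaks 5 and 8, is 112 kb apart. It encloses Sox2, peaks 6 and 7 without a match, and the first 15 kb of the stretch that begins 95 kb downstream. When only motifs near summits are counted, peaks 2 and 5 drop out and all 6 pairs point the same way.

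Most CTCF motif sequences of the region lie outside its peaks. At the threshold of 13.06 bits, 86 of the 95 matches were outside, 50 forward and 36 reverse, while over the genome 12.5% of 258105 matches lie in a peak. Around 67 of the 86 there were at most 2 CTCF tags within 150 bp, with a median of 1 CTCF tag and 1 IgG tag. None passed the recount, beside 0.469% of all matches outside peaks in the genome. The highest count was at a forward match 657.1 kb downstream of Sox2, chr3:35206019-35206037, with 9 CTCF tags and 0 IgG tags. That match narrowly missed the cut of 1e-05 (exact one-sided Poisson test, p = 1.2e-05). The next highest count was at a forward match 164.5 kb downstream, with 8 CTCF and 3 IgG tags.

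In the stretch from 95 to 130 kb downstream, chr3:34643927-34678927, the CTCF library held 244 tags and the IgG library 125. There are 2 peaks, peak 8 with its summit at 110.1 kb and peak 9 at 122.2 kb, which makes 5.71 summits per 100 kb. Peak 8 held 30 CTCF tags and 1 IgG tag, with its reverse motif centred 7 bp from the summit. Peak 9, at chr3:34670739-34671436, held 19 CTCF tags and 1 IgG tag, with a height of 15 tags. Its best sequence was forward, 17 bp from the summit, and missed the motif threshold.

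**Figure D4:**
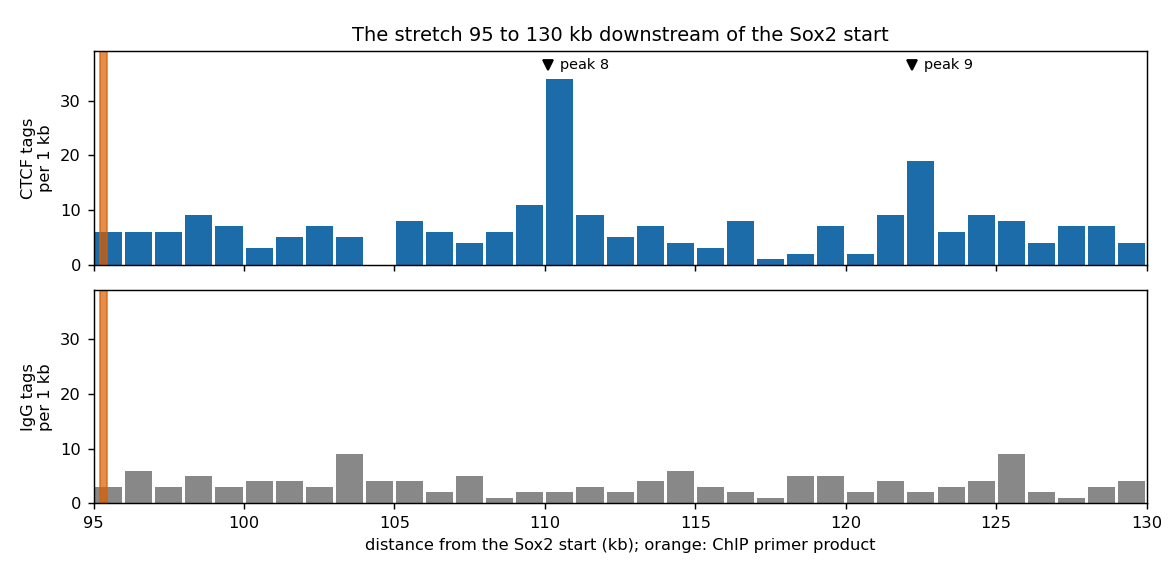
Tags of the CTCF library (top) and the IgG library (bottom) in steps of 1 kb from 95 to 130 kb downstream of the Sox2 start, on the same vertical scale. The steps with the 2 summits reach 34 and 19 CTCF tags, steps outside peaks stay between 0 and 9, and the orange bar marks the product of the ChIP primers at 95.2 kb.

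Step by step, the summit of peak 8 lay in a step with 34 CTCF and 2 IgG tags and that of peak 9 in one with 19 and 2. The 31 steps that touch no peak had between 0 and 9 CTCF tags with a median of 6, and between 1 and 9 IgG tags with a median of 3. No single step outside the peaks stood apart. Summed over all bases of the stretch outside its peaks, however, there were more CTCF than IgG tags: 195 against 123. This sum includes the bases beside the peaks in the steps that a peak touches. The ratio was 1.51 (1.2 to 1.91), or 1.39 (1.08 to 1.79) with 1 kb on either side of the peaks also left out. Over the whole region outside its peaks the ratio was 0.882 (0.845 to 0.922). In steps of 5 kb it ran from 0.793 (0.416 to 1.5) between 100 and 105 kb to 2.11 (1.09 to 4.29) between 105 and 110 kb. Over 68757 tiles of 35 kb across the genome, the median ratio outside peaks was 0.827, and 94.2% of the tiles were below 1.51. GC content, 46% in the stretch, again moved with the ratio: in the 6709 tiles with 45 to 47% the median was 1.05, and 89.3% were below the stretch.

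The stretch holds 6 motif matches, 1 in peak 8 and 5 outside the peaks. The best of the 5, forward at 128.0 kb, scored 20.61 bits and so is a better match than that of peak 8, with 19.83 bits. Within 150 bp of it lay 2 CTCF tags and 0 IgG tags, against 26 and 0 around the match of peak 8. How well tags align around these matches was not tested. A forward match 110.7 kb downstream, just past peak 8, had 5 CTCF tags and 1 IgG tag. Another at 113.8 kb had the same counts.

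The study's ChIP primers named for Sox2 amplify a single product of 237 bp on mm9, chr3:34644149-34644385, 95.2 kb downstream of the Sox2 start and intergenic. It is printed since it marks the site that the study itself examined, with the primer sites in capitals.
Sox2 ChIP product: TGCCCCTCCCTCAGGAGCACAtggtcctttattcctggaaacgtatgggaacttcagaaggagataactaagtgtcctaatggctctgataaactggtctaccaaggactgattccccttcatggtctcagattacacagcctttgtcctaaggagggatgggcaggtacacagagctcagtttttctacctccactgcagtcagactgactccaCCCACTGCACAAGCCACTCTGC

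No peak lies at this product, and the next summits are 26187 bp before it, at peak 7, and 14757 bp after it, at peak 8. The product and 500 bp on either side held 8 CTCF and 4 IgG tags, a ratio of 1.9 (0.51 to 8.64) that did not differ from the library totals (exact binomial test, two-sided, p = 0.389). With 1000 bp on either side there were 21 CTCF and 8 IgG tags, a ratio of 2.5 (1.06 to 6.52; exact binomial test, p = 0.0253), so the call depends on the width. Both tests were against the library totals and were not adjusted. The ratio of 1.51 that the stretch around the product had outside its peaks lies inside both intervals. The best motif sequence in the narrower window scored 5.87 bits, far from the threshold. The paper's qPCR after ChIP read RAD21, partly at sites chosen for lacking a CTCF peak and a CTCF motif near the summit. Whether this product is such a site was not checked here. If it is, the absence of a peak and of a nearby motif follows from that choice.

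Outside the peaks, the ratio of the libraries differed between parts of the region. The CTCF tags there came to 3.66 per kb in the 200 kb upstream, 4.35 in the first 200 kb downstream and 2.95 beyond, while IgG tags came to 3.57, 3.57 and 3.55. The ratios were 0.975 (0.877 to 1.08), 1.16 (1.05 to 1.28) and 0.79 (0.748 to 0.835), and the intervals of the last 2 do not overlap. GC content was 43.7%, 45.4% and 42.5% in the same order, and summits came to 2.5, 2.5 and 0.625 per 100 kb. Bases right beside the peaks were not left out here. The parts of GC content and of such bases in the result were not tested. Scaled instead by the tags outside all deposited peaks, which raises every ratio 1.11 times, the ratios were 1.09, 1.29 and 0.881.

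**Figure D5:**
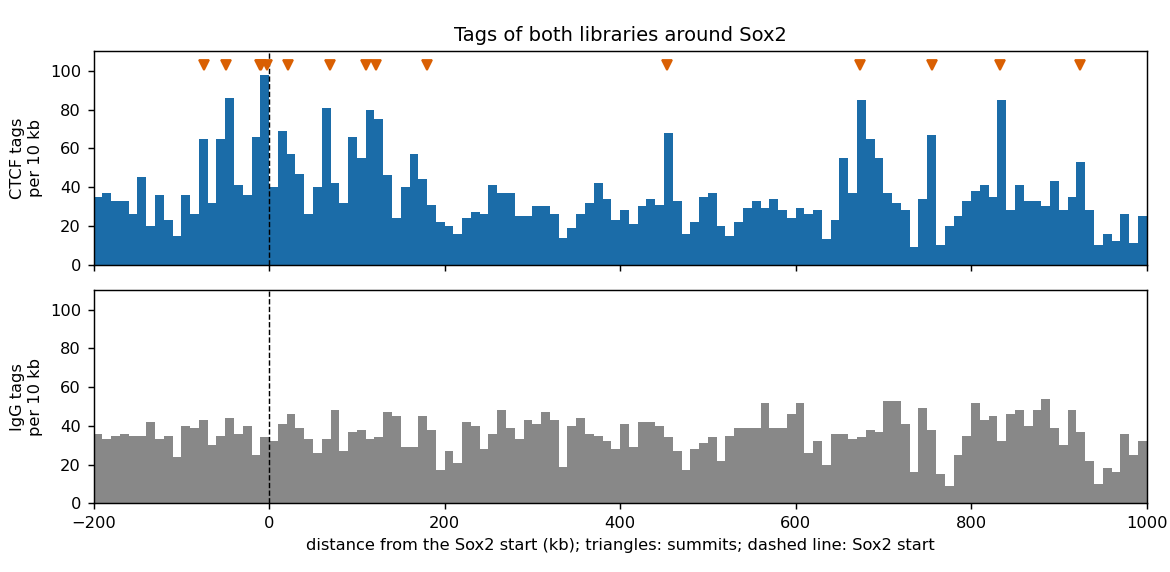
Tags of the CTCF library (top) and the IgG library (bottom) in steps of 10 kb against the distance from the Sox2 start, on the same vertical scale, with triangles at the 15 summits. CTCF steps range from 9 to 98 tags with a median of 32.5 and IgG steps from 9 to 54 with a median of 36. High CTCF steps without a summit include those from 10 and 90 kb, with 69 and 66 tags, and those from 680 and 690 kb, with 65 and 55 tags.

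Between neighbouring peaks, the ratio was above 1 in all 9 intervals from peak 1 to peak 10, from 1.04 to 2.38, and in 5 of them the lower bound was too. The value of 2.38 (0.39 to 25) rests on only 5 CTCF and 2 IgG tags in the 0.775 kb between peaks 3 and 4. In the 5 intervals from peak 10 to peak 15 the ratio ran from 0.736 to 0.898, around the median of 0.827 that tiles of 35 kb had over the genome. On the upstream flank, from the edge of the region to peak 1, it was also low, 0.831 (0.724 to 0.954), with 392 CTCF and 449 IgG tags. From peak 15 to the downstream edge it was 0.778 (0.619 to 0.976). The density of both libraries varied. IgG tags ran from 2.58 to 3.85 per kb in the 9 intervals and from 3.18 to 4.33 in the 5, and CTCF tags from 3.91 to 7.39 and from 2.78 to 3.88. GC content was 39.5 to 48.3% and 41 to 43.9%. Length differed as well: the 9 intervals spanned 0.775 to 56.6 kb between peak edges and the 5 spanned 75.8 to 273 kb. All of the 9 were shorter than any of the 5, so position and length cannot be told apart here. Bases right beside the peaks were kept, and their part in these ratios was not tested. The lowest IgG density and the lowest GC content of the 9 are those of the short interval between peaks 3 and 4. Without it, IgG tags ran from 3.36 to 3.85 per kb. With the other scaling the 9 ran from 1.16 to 2.65 and the 5 from 0.82 to 1, with 1 of the 5 above 1 before rounding, and the upstream flank was at 0.926.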

How the data were processed

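ChIP-seq of CTCF-LAP R1/E ESCs was analysed from 1 CTCF and 1 IgG library. One label calls the latter input DNA, but it was taken for the IgG ChIP that the other labels name. The authors deposited aligned tags, each with a count of 1 and no normalization, on mm9 (the aligner is not given in the sources used here). For CTCF they also deposited MACS 1.4 peaks with a score and summits with a height, the signal of the pileup in tags.

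From these, each tag was shifted by 93 bp to the fragment centre (fragment length 187 bp at the 1000 highest scoring peaks) and counted in Python 3.11.15 with scipy 1.17.1, numpy 2.4.6 and pandas 2.3.3. Sequences were read with pysam 0.24.0, and plots drawn with matplotlib 3.10.9. Ratios were scaled to library totals of 8391191 and 7988889 tags, with exact 95% intervals. Window tests were exact binomial tests across the genome with Benjamini-Hochberg adjustment. The genome rate of the recount assumed 1870000000 usable bases, the size that the study gave MACS. The motif matrix had a pseudocount of 1 and base frequencies of 0.29 (A, T) and 0.21 (C, G). Tiles had at most 5% unknown bases, and those of 35 kb at least 50 IgG tags outside peaks. Genes were those of GENCODE M1. All peaks of the region were named, with full values for the 5 tallest, the nearest on either side of Sox2 and those 95 to 130 kb downstream. Sox1 was not analysed here. Alternatives varied the score, window, scaling, tag shift and motif threshold. The scripts were tested on simulated data. Members and lists were chosen with earlier results of these data known.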

Additional observations from a re-analysis of the deposited data

How the results depend on the processing

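Of 26 alternatives for 13 results, 18 kept the result within its error or within 1.5 times its count. With a score of at least 100, the median spacing was 77.5 kb in place of 44.5 kb. Summits with a motif fell to 3 with a window of 50 bp, in place of 7. Forward motifs numbered 1 at a motif threshold of 1e-04 and 2 anywhere in the peak, in place of 0; the latter alternative and a genome rate over the whole assembly were chosen after seeing the data. The ratio in the peaks was 15.4 over 300 bp around the summits in place of 8.97. Outside the peaks the ratio of the region was 0.983 (0.941 to 1.03), in place of 0.882, when scaled by tags outside peaks, so that its interval then includes 1. Around the primer product it was 2.5 with 1000 bp on either side in place of 1.9 (exact binomial test, p = 0.0253 in place of 0.389; p = 0.255 with the other scaling). Motif matches outside peaks fell from 86 to 21 at a threshold of 1e-06.

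No paired analysis was possible because each antibody has 1 library. Depth limits what single sites show: no window of 1 kb with fewer than 11 tags was called in the genome. Single-site ratios rest on 1 to 8 IgG tags per peak, and the tagged protein was read in 1 line.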

Other observations

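One called window of 1 kb touched no peak. It lies at chr3:34489001-34490000, between peaks 1 and 2 in an intron of Sox2ot, and held 12 CTCF tags and 0 IgG tags (exact binomial test, adjusted p = 0.0434). The annotated miRNA gene AC137708.1 is inside it. The scaling by tags outside peaks called 15 windows in the region in place of 13.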
